A study of Mus musculus with 6 samples.

Results

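The endothelial ETS, SoxF and Klf2 factors are 10 genes, *Erg*, *Fli1*, *Ets1*, *Ets2*, *Etv2*, *Elk3*, *Sox7*, *Sox17*, *Sox18* and *Klf2*, chosen by their names among the 34745 genes of the deposited expression table, and all 10 were found there. Their mRNA was measured by RNA-seq in cardiac fibroblasts taken from the left ventricle of KDM5B-knockout (KO) mice and littermate wild-type (WT) mice on Day 7 after myocardial infarction (MI), which was induced in both groups by tying off the left anterior descending coronary artery. The 6 samples are 3 libraries labelled KO and 3 libraries labelled WT, from male mice aged 8 to 10 weeks, and no library came from hearts without MI. The knockout was made with CRISPR/Cas9 and removes the part of *Kdm5b* that encodes the JmjC demethylase domain, with a frameshift, and no Cre or promoter limits it to 1 cell type. The labels do not say whether the 3 libraries of a group came from separate mice, so the p-values measure the spread between these libraries, which may be technical.

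ETS factors bind DNA with a GGAA core through a winged-helix ETS domain, and many regulatory elements that are active in endothelial cells hold such sites. SoxF factors (*Sox7*, *Sox17* and *Sox18*) bind and bend DNA through an HMG box and act in endothelial specification, in arterial identity and in lymphatic development. *Klf2* is a zinc-finger factor that laminar blood flow induces in endothelial cells through the MEK5-ERK5-MEF2 cascade, and it drives anti-thrombotic and vasodilator genes. The comparison asks which of these transcription factors differed between the libraries labelled KO and those labelled WT, both made from cells isolated as cardiac fibroblasts from infarcted hearts.

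Libraries held 12025403 to 15329427 counts on genes, so that a count of 0 allows a level of at most 0.193 to 0.246 CPM (counts scaled to a common, TMM-normalized library size), a limit that covers counting error only. Differences were tested with the quasi-likelihood test of edgeR after TMM normalization on 14084 genes left by its filter on low counts, a positive log2 fold change means a higher level in KO, and a Benjamini-Hochberg adjusted p under 0.05 is the threshold. *Kdm5b* was lower in every library labelled KO, by little, and did not pass that threshold. It measured 98.1, 107 and 105 CPM under the KO label and 108, 129 and 123 CPM under the WT label (log2 fold change -0.22, edgeR adjusted p 0.0574), and a count over the whole gene does not isolate the deleted part. It passed with upper-quartile scaling (edgeR adjusted p 0.0324) and without WT replicate 1 (edgeR adjusted p 0.0188), and was above 0 (0.14) under a scaling on cardiomyocyte and macrophage markers. KO and WT hereafter mean the libraries labelled KO and the libraries labelled WT. Fibroblast markers were abundant in all 6 libraries, with 13 listed markers summing to 27021 to 31499 CPM in KO and 37783 to 40211 CPM in WT, while markers of endothelial cells, cardiomyocytes and macrophages were present too.

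Of the 10 factors, 9 had enough counts to be tested, 7 were higher in KO, 0 were lower, and *Ets1* and *Sox17* did not pass the threshold. Over all tested genes 17.7% were higher in KO and 12.5% were lower, 30.2% in all. At an unadjusted p under 0.05, 1 factor (*Sox17*) was lower, and DESeq2 and limma called 0 lower. The 9 tested factors had a median log2 fold change of 1.08, beside -0.02 for all tested genes. The 3 largest rises were those of *Sox18* (7.22-fold), *Erg* (6.60-fold) and *Sox7* (5.80-fold), and 5 factors rose by more than 2-fold, as did 5.99% of tested genes. In these bulk libraries, fewer cells of a type and less RNA per cell cannot be told apart.

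The coding sequence of the ETS domain, which binds DNA, shows how alike the closest paralogues among the ETS factors are whose counts are compared here. The domains of *Erg* and *Fli1* were read from GENCODE vM21 transcripts, 5′ to 3′ on the coding strand, with GRCm38 coordinates (mm10). Capitals mark bases that are identical in both genes (208 of 240, 86.7%). The domain lies in a single coding exon, at chr16:95361076-95361315 (minus strand) in *Erg* and at chr9:32424055-32424294 (minus strand) in *Fli1*.
Erg: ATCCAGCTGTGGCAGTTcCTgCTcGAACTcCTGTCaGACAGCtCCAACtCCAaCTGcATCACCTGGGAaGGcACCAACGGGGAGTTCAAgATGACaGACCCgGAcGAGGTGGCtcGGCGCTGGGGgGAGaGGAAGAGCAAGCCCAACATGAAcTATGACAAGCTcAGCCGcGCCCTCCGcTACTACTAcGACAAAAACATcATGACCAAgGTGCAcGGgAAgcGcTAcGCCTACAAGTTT
Fli1: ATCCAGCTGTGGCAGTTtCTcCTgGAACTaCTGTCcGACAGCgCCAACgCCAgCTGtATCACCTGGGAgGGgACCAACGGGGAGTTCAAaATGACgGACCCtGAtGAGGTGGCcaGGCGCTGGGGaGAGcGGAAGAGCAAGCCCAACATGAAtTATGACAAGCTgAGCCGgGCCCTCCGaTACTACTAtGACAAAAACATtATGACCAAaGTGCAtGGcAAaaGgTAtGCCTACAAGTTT

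The longest uninterrupted run that the ETS domains of *Erg* and *Fli1* shared was 22 bases. Over whole transcripts, *Erg*, *Ets1*, *Ets2*, *Etv2*, *Sox18* and *Klf2* had 0 windows of 50 bases in common with a transcript of another gene on either strand. *Fli1* and *Sox7* shared 0.292% and 0.0615% of such windows. *Elk3* shared 5.9% of its windows with its neighbour *Cdk17*, which lies on the other strand and does not overlap *Elk3* in the deposited loci. The counts of *Cdk17* are not given here. *Sox17* shared 15.0% with its antisense neighbour *Gm37587*, at a count of 0 throughout.

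*Erg*, *Fli1*, *Ets2* and *Elk3* rose among the ETS factors. *Erg* (ENSMUSG00000040732, chromosome 16 from 95359169 to 95586593, minus strand, mm10) maintains endothelial identity and sustains transcription of junctional genes such as *Cdh5*. Its level was 48.9, 38.3 and 45.6 CPM in KO and 7.49, 6.89 and 5.69 CPM in WT. The lowest KO library stood far above the highest WT library. *Erg* rose by a log2 fold change of 2.72 ± 0.13 (SE, n = 3 per group), with an edgeR adjusted p of 8.4e-06 and an exact two-sided permutation p of 0.1, the smallest that 3 libraries against 3 allow.

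*Fli1* (ENSMUSG00000016087, chromosome 9 from 32422204 to 32542861, minus strand) is the closest paralogue of *Erg* and acts in endothelial, megakaryocytic and other blood cells. It measured 28.3, 25.4 and 34.0 CPM in KO and 14.1, 15.4 and 11.9 CPM in WT, without overlap between the groups. The log2 fold change was 1.08 ± 0.14 (SE), with an edgeR adjusted p of 7.8e-04. The next ETS gene on chromosome 9 is *Ets1*. *Ets1* (ENSMUSG00000032035, chromosome 9 from 32636221 to 32757820, plus strand), a factor of angiogenic endothelium that is also abundant in lymphocytes, measured 35.3, 38.8 and 42.7 CPM in KO and 40.7, 35.6 and 39.0 CPM in WT. The ranges of the groups overlapped, and the log2 fold change was 0.02 ± 0.09 (SE), with an edgeR adjusted p of 0.880.

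*Ets2* (ENSMUSG00000022895, chromosome 16 from 95702075 to 95721051, plus strand), a widely expressed target of Ras-MAPK signalling, lies on the same chromosome as *Erg*, beyond its 5′ end. It measured 210, 164 and 159 CPM in KO and 88.9, 85.3 and 94.6 CPM in WT. Every KO library was above every WT library, and the log2 fold change was 0.99 ± 0.11 (SE, edgeR adjusted p 3.5e-04). *Elk3* (ENSMUSG00000008398, chromosome 10 from 93247414 to 93311135, minus strand) is a ternary complex factor that works with serum response factor and turns from a repressor into an activator after Ras signalling. It measured 173, 157 and 166 CPM in KO and 117, 120 and 115 CPM in WT. The groups did not overlap, and the rise was the smallest of the 7, 1.40-fold (log2 fold change 0.49 ± 0.05, SE, edgeR adjusted p 3.7e-04).

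*Etv2* (ENSMUSG00000006311, chromosome 7 from 30633616 to 30635852, minus strand), which marks the embryonic progenitors of blood and endothelium and is used experimentally to turn on endothelial genes in fibroblasts, had a count of 0 in all 6 libraries. It was not detectable at this depth in either group and was not tested.

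Among the SoxF genes, *Sox7* and *Sox18* rose and *Sox17* did not. *Sox18* (ENSMUSG00000046470, chromosome 2 from 181669836 to 181671640, minus strand), which acts in vessel maturation and upstream of *Prox1* in lymphatic specification, measured 20.2, 19.3 and 25.0 CPM in KO and 3.01, 3.07 and 2.84 CPM in WT. The WT libraries lay within a narrow range, far below the KO libraries, and the log2 fold change was 2.85 ± 0.14 (SE, edgeR adjusted p 8.6e-06). *Sox7* (ENSMUSG00000063060, chromosome 14 from 63943674 to 63950732, plus strand), which acts in early endothelial differentiation and vessel sprouting, measured 47.1, 26.6 and 33.9 CPM in KO and 4.97, 6.69 and 6.83 CPM in WT. KO replicate 1 was the highest, the groups did not overlap, and the log2 fold change was 2.54 ± 0.23 (SE, edgeR adjusted p 1.3e-04).

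*Sox17* (ENSMUSG00000025902, chromosome 1 from 4490931 to 4497354, minus strand), a factor of arterial endothelium, had counts of 9, 25 and 24 in KO and 30, 43 and 34 in WT. In CPM these were 0.737, 1.88 and 1.55 in KO and 2.10, 2.93 and 2.42 in WT. All KO libraries lay below all WT libraries, as they did for 22.4% of tested genes. The log2 fold change was -0.82 ± 0.33 (SE), with an unadjusted p of 0.0358 and an adjusted p of 0.0946 in edgeR's quasi-likelihood test, so the difference did not pass the threshold. Without KO replicate 1 the log2 fold change was -0.54, with an edgeR adjusted p of 0.198. Over the alternatives tried, the edgeR, DESeq2 or limma adjusted p ranged from 0.0666 to 0.247.

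*Klf2* (ENSMUSG00000055148, chromosome 8 from 72319033 to 72321656, plus strand) measured 51.9, 39.5 and 42.6 CPM in KO and 16.4, 20.5 and 19.8 CPM in WT. Every KO library was above every WT library. It rose 2.36-fold, a log2 fold change of 1.24 ± 0.13 (SE, edgeR adjusted p 2.7e-04). All KO libraries were thus above all WT libraries for each of the 7 called factors, and for 24.7% of tested genes.

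**Figure D1:**
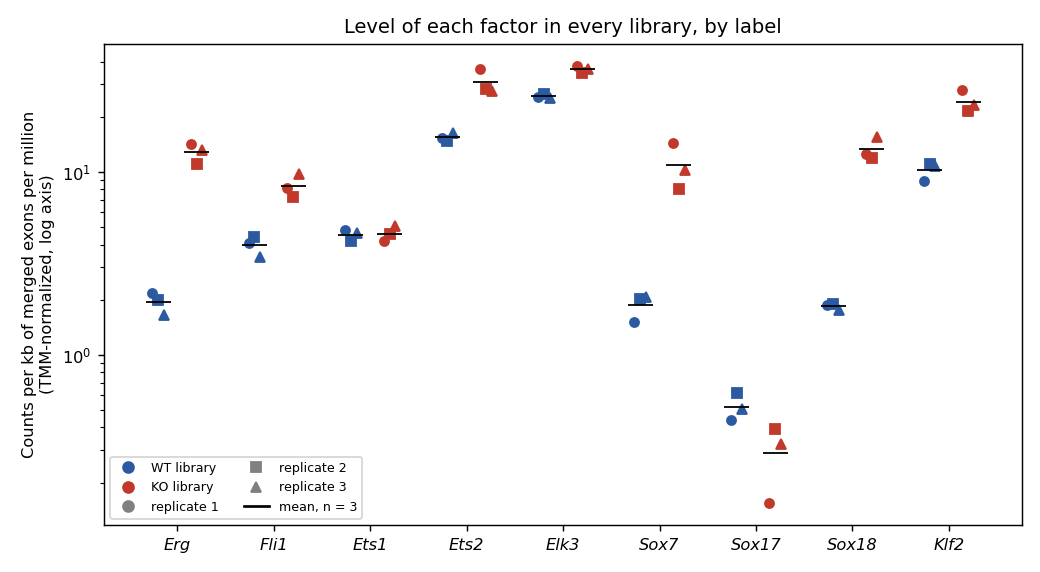
Level of the 9 factors with counts, as TMM-normalized CPM per kilobase of merged exons on a log axis, in each WT (blue) and KO (red) library. Marker shapes give the replicate number and black bars the mean of 3 libraries. The KO libraries lie above the WT libraries for 7 factors, overlap with them for *Ets1* and lie below them for *Sox17*.

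KO replicate 1 gave the highest KO level of *Erg*, *Ets2*, *Elk3*, *Sox7* and *Klf2* and the lowest of *Ets1* and *Sox17*. The same library also gave the highest level of the endothelial adhesion molecules *Pecam1* (720, 514 and 633 CPM in KO replicates 1, 2 and 3) and *Cdh5* (460, 309 and 360 CPM), and the part of this in the members' levels was not tested. Without both KO replicate 1 and WT replicate 1, a setting chosen after seeing the data, 7 factors were still higher and 0 lower.

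To compare levels between genes, counts were set per length, as TMM-normalized CPM per kilobase of the gene's merged exons (CPM per kb). The deposited FPKM values rest on a longer gene length for some factors. For *Erg* the length behind the deposited FPKM was 9156 bases against 3466 bases of merged exons, and for *Sox17* 11477 against 4772 bases, whereas for *Fli1*, *Ets2*, *Sox7*, *Sox18* and *Klf2* both lengths were close. A ratio of KO to WT for a single gene does not depend on this length unless a pseudocount is added to the FPKM, but the order of genes does.

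Per length, *Elk3* was the most abundant factor in WT (25.9 ± 0.572 CPM per kb, SD, n = 3), followed by *Ets2* (15.5 ± 0.814) and *Klf2* (10.2 ± 1.18). *Ets1* (4.53 ± 0.307) and *Fli1* (3.96 ± 0.496) came next, with overlapping libraries. *Erg* (1.93 ± 0.265), *Sox7* (1.87 ± 0.313) and *Sox18* (1.84 ± 0.0726) were at levels that overlapped with each other, and *Sox17* was the lowest (0.521 ± 0.0883). The order was different in KO. *Elk3* (36.3 ± 1.75), *Ets2* (30.8 ± 4.89) and *Klf2* (24.2 ± 3.51) stayed at the top, where neighbours in this order overlapped. *Sox18* (13.3 ± 1.90), *Erg* (12.8 ± 1.57) and *Sox7* (10.9 ± 3.15) stood above *Fli1* (8.39 ± 1.25) in their means, with *Sox7* and *Fli1* overlapping, and *Ets1* (4.59 ± 0.436) and *Sox17* (0.291 ± 0.123) were at the bottom without overlap. *Erg*, *Sox7* and *Sox18*, below *Ets1* in every WT library, were above it in every KO library.

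The 3 SoxF genes together measured 3.80, 4.54 and 4.33 CPM per kb in WT and 26.9, 20.3 and 26.0 in KO. *Sox17* made up 11.6%, 13.6% and 11.7% of this sum in WT and 0.574%, 1.93% and 1.24% in KO. *Sox7* held 44.0% ± 4.13 (SD, n = 3) in WT and 44.0% ± 7.80 in KO, and *Sox18* held 43.7% ± 4.48 and 54.7% ± 7.23. The groups overlapped in the shares of *Sox7* and *Sox18* and not in that of *Sox17*.

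**Figure D2:**
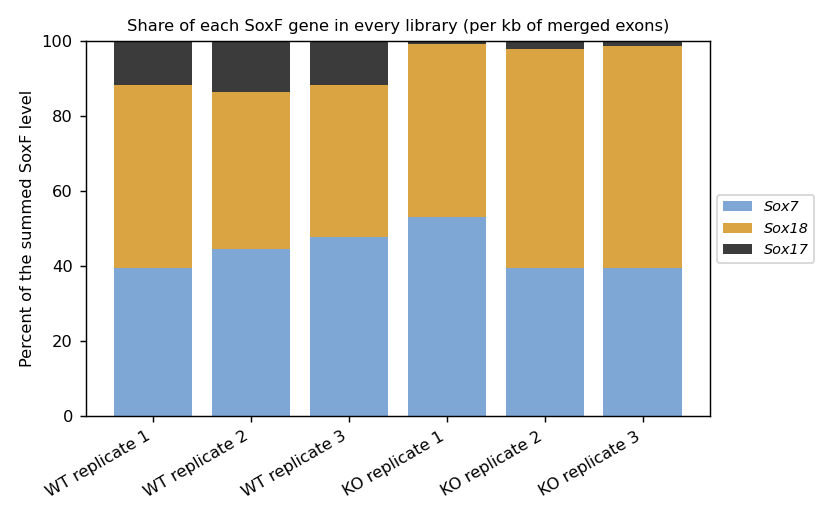
Share of *Sox7*, *Sox18* and *Sox17* in their summed level per kilobase of merged exons, in percent, for each library. *Sox17* holds 11.6% to 13.6% of each WT bar and 0.574% to 1.93% of each KO bar.

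The 5 detected ETS factors together measured 52.1, 51.8 and 51.4 CPM per kb in WT and 101, 85.7 and 92.1 in KO. *Erg* held 3.73% ± 0.485 (SD, n = 3) of the sum in WT and 13.7% ± 0.749 in KO. *Elk3* held 49.4%, 51.1% and 49.3% in WT and 37.7%, 40.2% and 39.7% in KO, a lower share at a higher level. *Ets1* held 8.75% ± 0.580 in WT and 4.98% ± 0.736 in KO.

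Whether 2 related factors changed by different amounts was tested for 6 pairs as the difference of their log2(FPKM + 1) values in the same library, with exact two-sided permutation tests and Benjamini-Hochberg adjustment over the 6. The *Sox17* to *Sox18* ratio was -3.68 ± 0.20 in KO and -1.21 ± 0.05 in WT (log2, SD, n = 3), a difference of -2.46 (exact p 0.1, adjusted 0.12). For *Sox17* to *Sox7* the difference was -2.16 and for *Erg* to *Fli1* 0.83, both with the same exact p. KO and WT libraries did not overlap in these 3 ratios. For *Ets1* to *Ets2* the difference was -0.93, and for *Klf2* to its paralogue *Klf4* it was 1.09, also without overlap and with an exact p of 0.1. *Sox7* to *Sox18* differed by -0.30 (exact p 0.4) with overlapping libraries, and by -0.54 without KO replicate 1 and -0.18 without KO replicate 3. With 3 libraries against 3 none of the 6 could pass 0.05. The pseudocount of 1 understates the ratios of low genes, and with 0.1 in its place the difference was -3.33 for *Sox17* to *Sox18* and 1.51 for *Erg* to *Fli1*.

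The factors were also read against 2 defining endothelial genes. *Pecam1*, the CD31 adhesion molecule, measured 42.4, 40.3 and 35.7 CPM in WT and rose by a log2 fold change of 3.98 (edgeR adjusted p 1.9e-06). *Cdh5*, VE-cadherin, measured 72.0, 79.8 and 75.9 CPM in WT and rose by 2.31 on the log2 scale (edgeR adjusted p 1.6e-05). The fitted rises of *Sox18*, *Erg* and *Sox7* thus lay between those of *Cdh5* and *Pecam1*. Each factor was set against the mean of these 2 genes in the same library on the log2(FPKM + 1) scale. All 9 factors with counts were lower relative to this mean in every KO library than in every WT library, a direction that for *Sox18*, *Sox7* and *Erg* rests on the reference chosen (exact two-sided permutation p 0.1 each, adjusted over 9 also 0.1). The mean rise of the 2 reference genes exceeded the fitted rise of every factor, so a lower mean in KO followed from the fold changes above. The p-values are therefore not separate evidence of it. The difference was smallest for *Sox18* (-0.64), *Sox7* (-0.95) and *Erg* (-1.22) and largest for *Elk3* (-2.49), *Ets1* (-2.95) and *Sox17* (-3.11), with *Klf2* (-1.80), *Ets2* (-2.03) and *Fli1* (-2.05) between. With a pseudocount of 0.1 the differences of *Sox18*, *Erg* and *Sox7* were -0.33, -0.54 and -0.66, so their size depends on this choice. On log2(counts + 1), which uses no gene length, *Erg* differed by -0.41 and *Sox17* by -4.01. References chosen after seeing the data gave the same direction or another. Relative to *Pecam1* alone, *Sox18* (-1.37), *Sox7* (-1.68) and *Erg* (-1.95) were lower in every KO library. Relative to *Cdh5* alone, *Sox18* differed by 0.08 with overlapping groups (exact p 0.7), *Sox7* by -0.22 and *Erg* by -0.50, and with a pseudocount of 0.1 all 3 were above 0 (0.49, 0.17 and 0.28). Relative to the mean of the 16 listed endothelial markers, *Sox18* was higher in every KO library (0.44, exact p 0.1), while *Sox7* (0.13) and *Erg* (-0.14) overlapped between the groups, and with a pseudocount of 0.1 *Erg* was higher in every KO library too (0.29, exact p 0.1). The other 6 factors were lower in every KO library under each of these references.

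**Figure D3:**
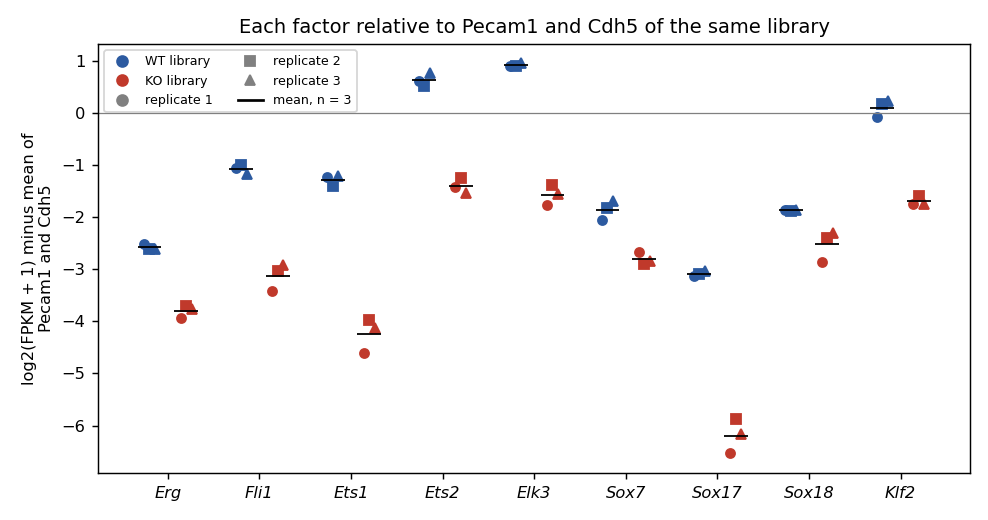
Log2(FPKM + 1) of each factor minus the mean log2(FPKM + 1) of *Pecam1* and *Cdh5* in the same library, for WT (blue) and KO (red), with the mean of 3 libraries as a bar. Every KO library lies below every WT library for each factor, by -0.64 in the mean for *Sox18* and by -3.11 for *Sox17*, and for *Sox18* the difference is 0.44 when all 16 endothelial markers are the reference.

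The other genes of the 3 families had medians nearer 0 than the 1.08 of the members. Of 20 other ETS genes, 13 were tested, 1 rose (*Etv4*), 2 fell (*Erf* and *Spi1*) and 10 did not pass, with a median log2 fold change of 0.02. *Etv4*, an effector of FGF and MAPK signalling, rose from 23.5 ± 2.39 to 38.2 ± 3.17 CPM (SD, n = 3, edgeR adjusted p 0.00135), and *Spi1*, the PU.1 factor of myeloid cells, fell by 0.55 on the log2 scale (edgeR adjusted p 0.00757) beside a median of -0.38 for macrophage markers. Of 16 other *Sox* genes, 8 were tested, 1 rose (*Sox13*, log2 fold change 1.16, edgeR adjusted p 0.00206) and 5 fell (*Sox4*, *Sox5*, *Sox9*, *Sox11* and *Sox12*), with a median of -0.45. Of 16 other *Klf* genes, 13 were tested, 3 rose (*Klf5*, *Klf7* and *Klf10*) and 2 fell (*Klf12* and *Klf15*), with a median of 0.11. The largest of these rises was that of *Klf10*, a gene that TGF-β induces (log2 fold change 0.86, edgeR adjusted p 2.4e-04).

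**Figure D4:**
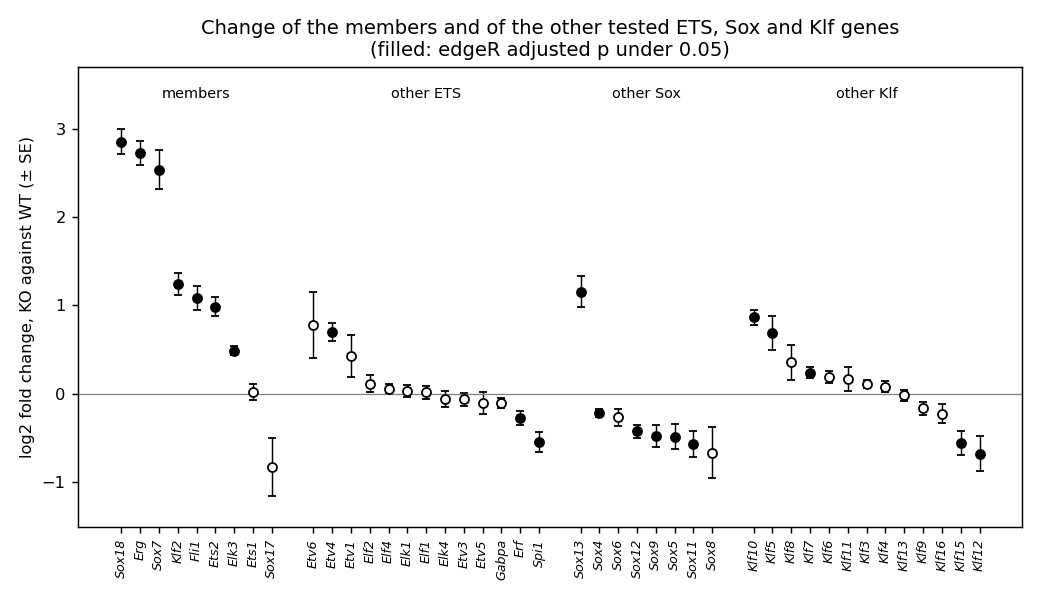
Log2 fold change of KO against WT with its standard error from edgeR for the 9 tested factors (members) and the other tested ETS, *Sox* and *Klf* genes. Filled circles passed an adjusted p of 0.05. *Sox18*, *Erg* and *Sox7* lie highest, at 2.85, 2.72 and 2.54, and the highest gene outside the 9 is *Sox13*, at 1.16.

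The falls named for genes outside the 10 factors, here and below, depend on the scaling. With the upper quartile 2 other ETS, 6 other *Sox* and 2 other *Klf* genes were lower, and DESeq2 called 2, 4 and 1. In the main fit 7 of 13 cardiomyocyte and 6 of 11 tested macrophage markers were lower, so setting such markers equal raises the values of all genes. With a scaling that sets cardiomyocyte and macrophage markers equal in all libraries, the median log2 fold change of all tested genes moved from -0.02 to 0.35, and 0 of the 9 genes that fell among other ETS, *Sox* and *Klf* genes passed the threshold as lower. Of these 9, *Sox4* turned to 0.15 and passed as higher (edgeR adjusted p 0.0499), and *Erf* turned to 0.09 without passing. The 5 rises of those families and the 7 rises of the members were called under that scaling too, and *Ets1* (0.38) passed as well. Without KO replicate 1 and WT replicate 1, 2 genes of those families (both other *Sox* genes) passed as lower, and 3 of the 5 rises passed.

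Of 20 other transcription factors that act beside the members in endothelial cells, 19 were tested, 9 rose (*Tal1*, *Lyl1*, *Lmo2*, *Gata2*, *Hhex*, *Nr2f2*, *Foxo1*, *Bcl6b* and *Id1*), 2 fell (*Foxc1* and *Foxc2*) and 8 did not pass, with a median of 0.43. *Bcl6b*, a repressor found in endothelial cells, rose from 7.64 ± 0.837 to 103 ± 28.6 CPM (SD, n = 3, log2 fold change 3.75, edgeR adjusted p 1.3e-05), above the fitted rise of any member.

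Of 20 genes known as targets of ETS and Sox factors in endothelium, all tested, 15 rose, 2 fell (*Efnb2* and *Rhoj*) and 3 did not pass (*Cldn5*, *Eng* and *Hey1*), with a median of 1.59, and 11 of the 20 are also on the list of endothelial markers. *Apln*, the apelin receptor ligand that tip cells secrete, rose from 7.36 ± 0.544 to 294 ± 69.8 CPM (SD, n = 3, log2 fold change 5.32, edgeR adjusted p 2.3e-06). *Efnb2*, the arterial ephrin, fell by 0.20 (edgeR adjusted p 0.0269), and under the marker scaling it was 0.16 and passed as higher.

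Among 12 known targets of *Klf2*, 6 rose (*Nos3*, *Thbd*, *S1pr1*, *Tek*, *Nov* and *Slco2a1*), 2 fell (*Edn1* and *Vcam1*) and 4 did not pass (*Klf4*, *Cav1*, *Ptgds* and *Nfe2l2*), with a median of 0.31. Of the 12, 2 that rose (*Nos3* and *Tek*) are also on the list of endothelial markers, and *Tek* is on that of ETS and Sox targets. *S1pr1*, the sphingosine 1-phosphate receptor that *Klf2* induces, rose from 26.9 ± 3.81 to 149 ± 38.3 CPM (SD, n = 3, edgeR adjusted p 5.0e-05). *Edn1*, the vasoconstrictor that *Klf2* represses, fell by 0.33 on the log2 scale (edgeR adjusted p 0.0167), and *Vcam1*, an adhesion molecule it also represses, fell by 0.40 (edgeR adjusted p 0.00130). Under the marker scaling these values were 0.03 and -0.03 and did not pass.

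The inputs to *Klf2* had a median near 0 with TMM. Of 13 genes of flow sensing and the MEK5-ERK5-MEF2 cascade, 3 rose (*Map3k3*, *Mef2a* and *Plxnd1*), 2 fell (*Heg1* and *Piezo1*) and 8 did not pass, with a median of 0.02. *Plxnd1*, a semaphorin receptor that senses flow, rose by a log2 fold change of 1.66 (edgeR adjusted p 5.0e-05), and *Map2k5*, which is MEK5 itself, had 0.02 (edgeR adjusted p 0.869). *Piezo1* and *Heg1* were above 0 under the marker scaling, at 0.11 and 0.15. There the list had a median of 0.38, beside 0.35 for all tested genes, with 10 of its genes higher and 0 lower.

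The promoters of *Klf2* and *Erg* are printed because both factors rose and because flow signalling reaches *Klf2* through MEF2. Promoter entries of RefSeq (GRCm38.p6, 250 bases before to 50 after the start) matched 5 of the 10 members, *Etv2*, *Klf2*, *Elk3*, *Erg* (3 starts) and *Ets2*, and not *Fli1*, *Ets1*, *Sox7*, *Sox17* or *Sox18*. Both strands were searched for CCGGAA, an ETS site longer than the GGAA core, and for the Sox core AACAAT, the KLF core CACCC and the MEF2 motif. GGAA alone was not searched for. The matches in the printed windows do not overlap. Capitals mark matches on either strand, so that a CACCC on the other strand reads GGGTG. *Klf2* is at chr8:72318812-72319111 (plus strand) and the most upstream start of *Erg* at chr16:95586544-95586843 (minus strand), each written 5′ to 3′ in the direction of its gene.
Klf2: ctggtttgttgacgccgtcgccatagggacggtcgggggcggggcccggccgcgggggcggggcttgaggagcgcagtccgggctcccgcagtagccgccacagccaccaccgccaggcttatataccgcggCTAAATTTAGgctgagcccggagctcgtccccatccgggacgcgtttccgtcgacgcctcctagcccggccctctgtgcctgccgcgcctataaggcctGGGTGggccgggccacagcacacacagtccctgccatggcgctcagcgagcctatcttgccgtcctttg
Erg: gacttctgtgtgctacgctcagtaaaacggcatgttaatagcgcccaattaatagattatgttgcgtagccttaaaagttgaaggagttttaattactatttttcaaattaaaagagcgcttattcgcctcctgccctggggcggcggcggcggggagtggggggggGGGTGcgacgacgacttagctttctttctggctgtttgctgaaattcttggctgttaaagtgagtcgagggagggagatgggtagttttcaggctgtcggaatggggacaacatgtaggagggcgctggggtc

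The *Klf2* promoter held 1 MEF2 match, at position -118 from the start, and 1 CACCC match at -19, and its GC content was 69.3%. The printed *Erg* promoter held 1 CACCC match at -83 and had a GC content of 50.3%. Neither of these windows held CCGGAA or AACAAT, but the shorter GGAA can be read in both, in *Klf2* as TTCC from the other strand. The other 2 *Erg* windows differed from the printed one. The window at chr16:95530316-95530615 held 1 MEF2 match at -16, and that at chr16:95459299-95459598 held 1 AACAAT match at -120 and 1 CACCC match at -238. Of 32851 RefSeq mouse promoters of the same length, 3.19% held the MEF2 motif, 57.5% CACCC, 14.9% CCGGAA and 10.7% AACAAT. A match is a string of letters in these windows, and the libraries hold no measurement of binding.

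Markers of cell types were read beside the members, since the factors are known from endothelial and blood cells. Of 16 endothelial markers, 13 rose, 0 fell and *Cldn5*, *Ptprb* and *Cyyr1* did not pass, with a median of 2.43 and a summed level of 2044 to 2787 CPM in KO and 589 to 591 CPM in WT. Of 7 lymphatic endothelial markers, 5 were tested, *Lyve1* and *Flt4* rose, *Pdpn* fell and *Ccl21a* was at 0 in every library, with a median of -0.03. Their summed level was 334 to 346 CPM in KO and 230 to 245 CPM in WT, most of it *Pdpn* in WT (209 ± 8.07 CPM, SD, n = 3, and 155 ± 17.4 in KO). *Lyve1* rose from 1.44 ± 0.475 to 97.9 ± 13.1 CPM (log2 fold change 6.08, edgeR adjusted p 1.9e-06). *Prox1*, the factor that defines lymphatic endothelium and that *Sox18* activates, measured 5.41 ± 0.682 CPM in KO and 5.53 ± 1.09 CPM in WT (SD, n = 3, log2 fold change -0.03, edgeR adjusted p 0.924).

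*Fli1*, *Erg* and *Ets1* are also used by blood cells. Of 8 platelet and megakaryocyte markers, 5 were tested, 3 rose (*Itga2b*, *Pf4* and *Gp1ba*) and 0 fell past the threshold, with a summed level of 34.1 to 49.3 CPM in KO and 8.26 to 12.4 CPM in WT, and the part of such cells in the levels of *Fli1* and *Erg* was not tested. *Gp1bb*, named after its values were seen, had a log2 fold change of -1.18 (edgeR adjusted p 0.0723, and 0.0200 to 0.198 over the alternatives), and without both replicates 1 it passed as lower beside 2 of the rises. Lymphocyte markers were near 0, with 9 of 13 at 0 in every library and a summed level of 0.774 to 1.15 CPM in KO and 0.910 to 1.16 CPM in WT, beside 35.3 to 42.7 CPM of *Ets1*. Of 12 macrophage markers, 11 were tested, 2 rose (*Cd68* and *Mertk*), 6 fell and *Cd163* was at 0 in every library, with a summed level of 1258 to 1290 CPM in KO and 1534 to 1645 CPM in WT. Of 9 neutrophil markers, 4 were tested, *S100a8* and *S100a9* rose and 0 fell, with a summed level of 8.63 to 11.3 CPM in KO and 4.57 to 6.04 CPM in WT. Mast cell markers summed to 12.4 to 13.3 CPM in KO and 15.0 to 17.0 CPM in WT, with 3 of 8 (*Cpa3*, *Fcer1a* and *Tpsb2*) at 0 in every library and 0 of 2 tested past the threshold. Most of this sum was *Kit*, at 11.9 ± 0.698 CPM in KO and 14.9 ± 1.89 CPM in WT (SD, n = 3). Erythroid markers summed to at most 0.300 and 0.142 CPM, with 2 of 6 at 0 and none tested.

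Of 13 fibroblast markers 11 fell and 0 rose (median -0.38), of 13 cardiomyocyte markers 7 fell and 0 rose (median -0.35, summed level 1402 to 1483 CPM in KO and 1682 to 1720 CPM in WT), and of 8 tested mural cell markers 4 fell and 2 rose (*Mcam* and *Abcc9*), with a summed level of 891 to 910 CPM in KO and 982 to 1003 CPM in WT. At an unadjusted p under 0.05 there were also 0 rises among fibroblast and cardiomyocyte markers and 0 falls among endothelial and neutrophil markers, and 1 fall each among platelet (*Gp1bb*) and mast cell markers. DESeq2 and limma gave 0 in each of these. Under the marker scaling 0 of the fibroblast and mural cell falls passed, and the falls of cardiomyocyte and macrophage markers cannot be read under it, since it sets those markers equal. What part these cell types have in the members' changes was not tested.

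The genes whose levels followed a member most closely were sought for *Erg* and *Sox17*. Over the 6 libraries, the Pearson r of log2 CPM with *Erg* was largest for *Cyth4* (0.9995), *Slfn3* (0.9995) and *Adgrf5* (0.9992) among 11289 genes. *Cyth4* and *Adgrf5* rose less than *Erg*, with log2 fold changes of 1.75 and 1.09, and *Slfn3* by 2.85. For *Sox17* it was largest for *1700020I14Rik* (0.9991), *Zxdb* (0.9986) and *Htra3* (0.993) among 11290 genes. These genes ran in step with *Sox17* at smaller sizes, with log2 fold changes of -0.09, -0.44 and -0.53. The 6 points of each correlation fall into the 2 groups and share depth and libraries, so the values are descriptions.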

How the data were processed

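RNA-seq libraries of cardiac fibroblasts on Day 7 after MI (3 labelled KO, 3 labelled WT) were analysed from the table the authors deposited. The authors mapped reads to mm10 with HISAT2, and the submitters' processing notes also name GRCm38.p4 and edgeR. The counting tool, annotation release and strand setting are not given in the sources used here, so reads of a gene and its antisense partner may not be told apart. The deposited counts are whole numbers per gene, not normalized. The FPKM values deposited by the authors are these counts per gene length and library total. In 68.4% of 12214 genes compared, that length equalled the sum of all distinct exons within 1%, and in 9.19% the merged exons, which were used here for levels between genes.

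Counts were tested with edgeR 4.0.16 (R 4.3.3, filterByExpr, TMM, glmQLFit, glmQLFTest) on 14084 of 20854 genes with a count, without covariates, after the fitting steps were tested on simulated data. The biological coefficient of variation was 10.9%, and precision is limited by the 3 libraries per group. Alternatives were DESeq2 1.42.0, limma 3.58.1 on log2(FPKM + 1) or log2(FPKM + 0.1), every gene with a count, a minimum mean of 1 CPM, library totals, upper quartile, a scaling on 24 cardiomyocyte and macrophage markers, a block for replicate numbers, leaving out each library, and, chosen after seeing the data, leaving out KO replicate 1 and WT replicate 1 together and other endothelial reference genes.

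The members and lists were chosen with earlier results of these data known. The rule for named genes took all 10 members, *Kdm5b*, *Pecam1* and *Cdh5*. In each list it took up to 2 genes past the threshold in each direction and 1 not past it by highest mean FPKM, and for *Erg* and *Sox17* the 3 tested genes of largest Pearson r at a minimum mean of 1 FPKM. Values are printed for some of these, and other genes are named to show which make up a count. Figures were made in matplotlib 3.10.9 (Python 3.11.15).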

Additional observations from a re-analysis of the deposited data

How the results depend on the processing

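The count of 7 members higher and 0 lower held under every alternative run, except that the marker scaling gave 8 higher. *Ets1* was 0.02 with TMM, -0.020 with the upper quartile and 0.38 under the marker scaling (edgeR adjusted p 0.00540), and -0.046 to 0.13 with libraries left out. *Sox17* stayed below 0 and short of the threshold throughout. *Kdm5b* passed with the upper quartile (-0.26, edgeR adjusted p 0.0324), turned to 0.14 under the marker scaling (edgeR adjusted p 0.160), and was -0.29 to -0.17 with libraries left out, past the threshold without WT replicate 1 (-0.29, edgeR adjusted p 0.0188) and without both replicates 1 (-0.25, edgeR adjusted p 0.0320).

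Over all genes, 2488 were higher and 1760 lower, against 2210 and 2263 with the upper quartile, 7996 and 70 under the marker scaling, and 2013 to 2508 higher and 1131 to 1614 lower with each library left out, the lowest of the latter without KO replicate 3, and 1757 higher and 916 lower without both replicates 1. Of the comparison lists, 50 genes were higher and 46 lower, against 80 and 1 under the marker scaling, 33 to 42 lower with each library left out, and 30 without both replicates 1. The cause was not tested. Ratios between paralogues and to *Pecam1* and *Cdh5* kept their direction under both other scales and with each library left out. With other references, chosen after seeing the data, *Sox18* turned to 0.084 (*Cdh5* alone) and 0.44 (all 16 endothelial markers) and *Sox7* to 0.13 (all 16), while relative to *Pecam1* alone they were -1.37 and -1.68.

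Replicate numbers do not pair the libraries. Deviations from the group means of same-numbered libraries correlated at 0.002, 0.003 and 0.035, and only KO replicate 3 correlated best with its own number. With the replicate number as a block, 7 members were higher and 0 lower, *Kdm5b* was -0.21 and passed the threshold (edgeR adjusted p 0.0271), and 2316 genes were higher and 1591 lower. Depth limits *Sox17*, with 9 to 43 counts per library, and *Etv2*, with 0.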

Other observations

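*Etv6*, an ETS repressor of blood and endothelial development that is not among the 10 factors, was singled out after its values were seen. Its counts were 840, 897 and 1159 in KO and 384, 347 and 1018 in WT, so that WT replicate 3 lay at the level of the KO libraries and far above the other WT libraries. Its log2 fold change was 0.78 with an edgeR adjusted p of 0.148 over all 6 libraries, and 1.47 with an edgeR adjusted p of 1.6e-04 without WT replicate 3. Over the other alternatives the adjusted p ran from 0.0254, under the marker scaling, to 0.416.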
